A study of Mus musculus with 12 samples.

Results

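The genes described here are Gpm6b, Mbp, Cnp, Pmp22 and Mal, 5 of the 50508 mouse gene models that were counted, chosen by name for the myelin proteins they encode and read in every well and as sums per plate. They were measured in single cells carrying the Dclk1-tdTom label, a red reporter tied to the doublecortin-like kinase gene Dclk1, from the longitudinal muscle and myenteric plexus of the adult intestine of C57BL/6 mice. Surface CD49b, the integrin alpha 2 chain, split the cells into CD49b+ cells, called glial in the labels, and CD49b- cells, called neuronal. All mice had received 3 mg tamoxifen at 8 or 9 weeks of age, and tissue was taken 10 days later. Irradiated mice received 10.5 Gy 7 days after tamoxifen, which is 3 days before collection, and mice in homeostasis received no radiation. The 4 groups were irradiated CD49b+, homeostasis CD49b+, irradiated CD49b- and homeostasis CD49b- cells, each on 3 plates, and each pool of 2 mice gave 1 CD49b+ and 1 CD49b- plate. Since all cells carried the Dclk1-tdTom label, cells of the plexus without it were not sampled.

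Myelin is the multilayered membrane that oligodendrocytes wrap around axons in the brain and Schwann cells wrap around axons in peripheral nerve. Enteric glia, the glia of the gut wall, derive from the neural crest like Schwann cells but ensheath the thin axons of the plexus without forming myelin. Gpm6b encodes a membrane glycoprotein of the proteolipid family, found in neurons and glia. Mbp encodes myelin basic protein, which holds the cytoplasmic faces of the layers together, and a longer form of the gene is used in immune cells and neurons. Cnp encodes CNPase, an enzyme of non-compact myelin that is linked to the cytoskeleton. Pmp22 encodes a peripheral myelin protein that is also made outside nerve, and Mal encodes a proteolipid of lipid rafts that takes part in membrane sorting in glia and epithelia.

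In the GRCm38 annotation, Gpm6b spanned chrX:166238911-166388988, Cnp chr11:100574904-100591729 and Pmp22 chr11:63128982-63159547, each on the plus strand, and Mal spanned chr2:127633226-127656695 on the minus strand. Gpm6b and Cnp are shown with the 250 bases before their RefSeq start because they passed the gate test in opposite directions. Both windows held ACAAAG, a core motif of SOX transcription factors, printed in capitals and searched on both strands as ACAAAG and CTTTGT. The sequences are the plus strand of GRCm38.p6 from RefSeq, 5′ to 3′, at chrX:166238693-166238942 for Gpm6b and chr11:100574689-100574938 for Cnp.
Gpm6b: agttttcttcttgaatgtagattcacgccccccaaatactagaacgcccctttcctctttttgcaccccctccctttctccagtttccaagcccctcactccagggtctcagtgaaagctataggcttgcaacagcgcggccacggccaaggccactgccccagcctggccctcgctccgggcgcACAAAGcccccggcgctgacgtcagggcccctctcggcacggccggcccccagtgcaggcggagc
Cnp: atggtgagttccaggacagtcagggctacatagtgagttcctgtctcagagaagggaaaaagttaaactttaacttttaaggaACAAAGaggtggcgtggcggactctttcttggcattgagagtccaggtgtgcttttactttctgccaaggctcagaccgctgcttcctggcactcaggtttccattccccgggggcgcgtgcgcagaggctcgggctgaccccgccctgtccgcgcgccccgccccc
The RefSeq starts lie just inside the spans given above, so each window runs a short way into its gene as annotated there. The match began 65 bases before the RefSeq start of Gpm6b and 167 bases before that of Cnp. The motif stood in 16.5% of the 32851 promoter windows of this length, in none of 4 windows listed for Pmp22 and not in that of Mal. No window was listed for Mbp, so it was not searched. A match is a string of letters and was not tested as a binding site.

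The well filter retained 213 of 287 wells in the irradiated CD49b+ group, 223 of 288 in homeostasis CD49b+, 266 of 287 in irradiated CD49b- and 262 of 288 in homeostasis CD49b-. CD49b+ plates held 150561 to 243340 UMIs (unique molecular identifiers, 1 for each captured transcript molecule) in retained wells, and CD49b- plates 541729 to 746674. The median retained well held 2110 to 2680 UMIs on CD49b+ plates and 5904.5 to 8335 on CD49b- plates. Of 11 enteric glia markers, all were detected in both CD49b+ groups, at a summed 26449 to 28334 raw CPM (UMIs per 1000000 retained UMIs of the plate) on irradiated plates and 32096 to 35167 on homeostasis plates. On CD49b- plates these markers summed to 86.8 to 115 raw CPM after irradiation, with Sox10 and Foxd3 among those at 0, and to 137 to 331 in homeostasis, with Gfap at 0. The 12 neuron markers summed to 179 to 1462 raw CPM on irradiated CD49b+ plates, 147 to 207 on homeostasis CD49b+ plates, 7989 to 9388 on irradiated CD49b- plates and 8408 to 9066 on homeostasis CD49b- plates, and Uchl1 was at 0 throughout. The plate of irradiated CD49b+ replicate 1 stood apart: across tested genes its log2 levels correlated with those of the other CD49b+ plates at 0.745 to 0.788, while those plates correlated with each other at 0.794 to 0.846. The gate results of the 5 genes are therefore also given without it.

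Gpm6b had the largest fold difference between the gates of the 4 genes that could be tested, and it was higher in CD49b+ cells. Its level was 224, 321 and 238 CPM (UMIs per 1000000, with library sizes normalised by the trimmed mean of M values) on irradiated CD49b+ plates and 587, 316 and 370 CPM on homeostasis CD49b+ plates. It was 6.22, 11.6 and 7.80 CPM on irradiated CD49b- plates and 15.8, 8.36 and 11.5 CPM on homeostasis CD49b- plates. Every CD49b+ plate lay above every CD49b- plate, with homeostasis CD49b+ replicate 1 the highest. The mean was 343 ± 132 CPM on CD49b+ plates and 10.2 ± 3.46 CPM on CD49b- plates (SD, n = 6 each). The log2 fold change was 4.99 with a standard error of 0.25 (31.8-fold, 95% interval 22.3 to 45.4), with an adjusted p of 3.03e-14 in the edgeR quasi-likelihood test and a higher level in CD49b+ cells in 6 of 6 pools. Without irradiated CD49b+ replicate 1 it was 5.0. The CD49b- gate held 38 Gpm6b UMIs in 33 wells, and all 3 of irradiated replicate 1 came from 1 well.

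Mbp was also higher in CD49b+ cells. It stood at 109, 80.4 and 109 CPM on irradiated CD49b+ plates and 148, 88.8 and 96.5 CPM on homeostasis CD49b+ plates. On CD49b- plates it was 8.29, 14.5 and 15.6 CPM after irradiation and 14.03, 11.7 and 20.1 CPM in homeostasis. The gates did not overlap, and the highest CD49b+ value was again that of homeostasis replicate 1. Mean levels were 105 ± 23.8 CPM in CD49b+ and 14.05 ± 3.96 CPM in CD49b- plates (SD, n = 6 each), a log2 fold change of 2.84 (SE 0.27, edgeR adjusted p = 4.26e-09, 6 of 6 pools), or 7.17-fold. Without irradiated CD49b+ replicate 1 the log2 fold change was 2.76. Mbp spans chr18:82475146-82585637 on the plus strand of GRCm38, and the pseudogene Rpl21-ps8 lies in an intron of Mbp on the opposite strand, with no exon overlap.

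Cnp ran the other way and was lower in CD49b+ cells. Its values were 24.2, 66.2 and 6.80 CPM on irradiated CD49b+ plates, the last from 1 UMI, and 53.3, 88.8 and 32.2 CPM on homeostasis CD49b+ plates. On irradiated CD49b- plates it reached 91.2, 96.0 and 104 CPM, and on homeostasis CD49b- plates 59.6, 127 and 106 CPM. The gates overlapped, since homeostasis CD49b- replicate 1 lay below 2 of the CD49b+ plates, but within each of the 6 pools the CD49b+ plate was the lower. The means were 45.3 ± 29.96 CPM in CD49b+ and 97.5 ± 22.3 CPM in CD49b- plates (SD, n = 6 each), a log2 fold change of -1.10 (SE 0.31, 0.466-fold, 95% interval 0.298 to 0.729, edgeR adjusted p = 0.0040). The value was -1.05 without irradiated CD49b+ replicate 1 and -1.70 without irradiated CD49b+ replicate 2, and it passed the threshold in both fits.

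The count of Cnp is uncertain for a reason of position. The gene overlaps Dnajc7, which encodes a co-chaperone, on the opposite strand over 8912 bases. Of these, 154 lie in exons of both genes, where Cnp has 3639 exon bases in all. The strand setting of the counting is not given in the sources used here. Dnajc7 was 52.9 ± 10.0 CPM in CD49b+ and 121 ± 15.2 CPM in CD49b- plates (SD, n = 6 each), a log2 fold change of -1.20 (SE 0.22, edgeR adjusted p = 5.80e-05). Both genes were thus lower in CD49b+ cells by a like amount. Without the strand setting it is not known whether reads of the 2 genes were told apart where they overlap. Wells with UMIs of both numbered 4 of the 41 CD49b+ wells with Cnp and 134 of the 232 CD49b- wells with Cnp. Over all retained wells, Dnajc7 was seen in 50 of 436 CD49b+ and 289 of 528 CD49b- wells. Cnp was seen in 8% of CD49b+ wells with Dnajc7 and 9.59% of those without it. In CD49b- wells these shares were 46.4% and 41.0%, and no shared reads are inferred from them.

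Pmp22 showed no gate difference past the threshold. Irradiated CD49b+ plates held 176, 279 and 197 CPM, and homeostasis CD49b+ plates 261, 128 and 300 CPM. Irradiated CD49b- plates held 135, 201 and 223 CPM, and homeostasis CD49b- plates 239, 182 and 216 CPM. The ranges overlapped almost wholly, and the widest spread lay within homeostasis CD49b+ plates. The mean was 223 ± 67.1 CPM in CD49b+ and 199 ± 37.0 CPM in CD49b- plates (SD, n = 6 each), with a log2 fold change of 0.17 (SE 0.20, edgeR adjusted p = 0.462, higher in 4 of 6 pools). Its 95% interval ran from 0.847-fold to 1.4995-fold. Without irradiated CD49b+ replicate 1 the log2 value was 0.20.

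Mal was the rarest of the genes and was detected in CD49b+ wells only. Irradiated CD49b+ plates held 0, 0 and 3 UMIs and homeostasis CD49b+ plates 5, 3 and 1, so that 4 of 6 CD49b+ plates had any. All 6 CD49b- plates had 0. The 12 UMIs lay in 10 wells, at most 2 in a well, and came to 10.7 raw CPM (exact Poisson 95% interval 5.53 to 18.7), and to 12.8 raw CPM without irradiated CD49b+ replicate 1. Against a floor of 3 counts over all CD49b- plates the level was 14.3-fold higher in CD49b+ cells. That fold leaves out the counting error of the 12 UMIs and is not a lower limit. No UMI in 528 CD49b- wells allows a share of up to 0.568% of wells with one, and these limits cover counting error only. Mal did not pass the filter on low counts and was not tested.

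**Figure D1:**
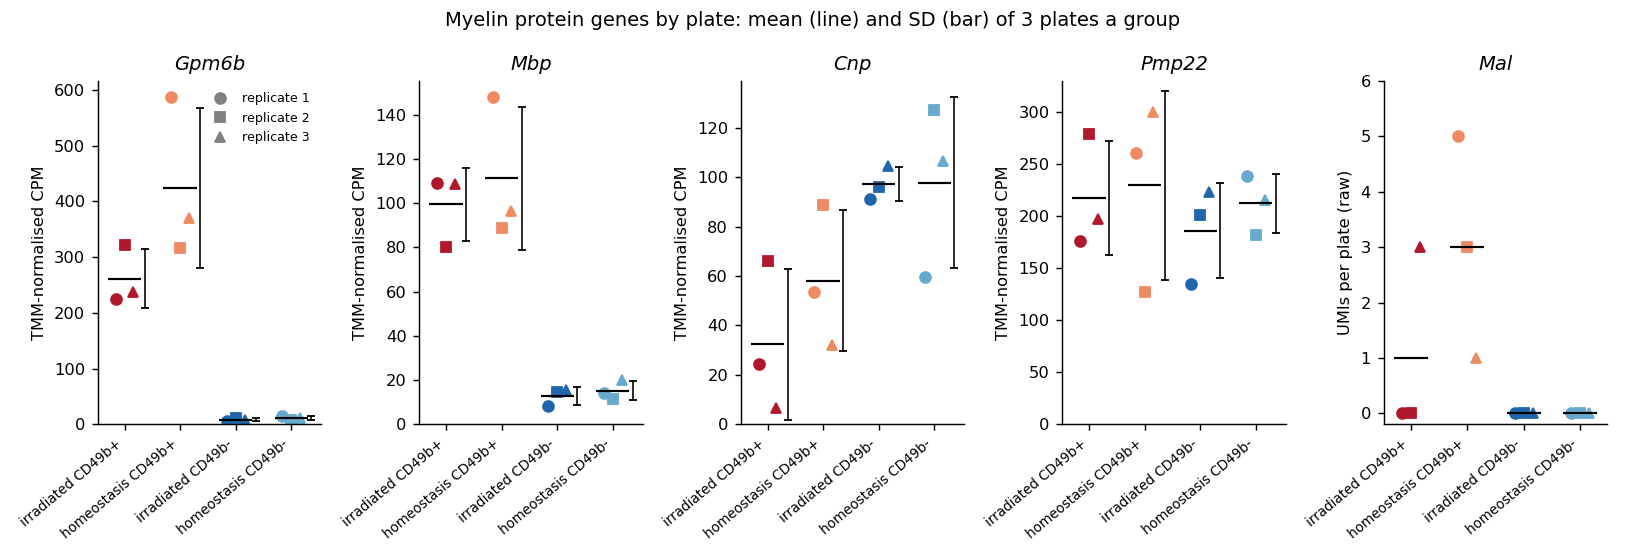
Level of each gene on each plate, as TMM-normalised CPM for Gpm6b, Mbp, Cnp and Pmp22 and as raw UMIs for Mal, by group; markers are plates, lines the means and bars the SD of 3 plates, with a separate vertical scale for each gene. Gpm6b and Mbp stood higher on all CD49b+ plates, Cnp stood lower in CD49b+ cells with overlap, Pmp22 overlapped throughout, and Mal had UMIs on 4 CD49b+ plates.

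Of the 4 genes tested, 3 passed the gate test, against 62.1% of all 8555 genes tested, so a call as such does not set them apart from other genes. In both Gpm6b and Mbp the plates of the gates did not overlap, which held for 35.3% of genes tested. The gates differ in kind of cell, and the 4 log2 fold changes ran from -1.10 to 4.99, on either side of the median of all genes tested, -0.13.

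The UMIs found in the gate with fewer of them were set beside those of markers, as raw counts that follow depth as well as level. For every 100 UMIs in CD49b+ wells, CD49b- wells held 10.4 of Gpm6b and 48.2 of Mbp, against 0.136 of Gfap, 0.608 of Sox10 and 0.635 of Apoe, which are glia markers. Not all glia markers were so low, with 14.2 for S100b and 33.5 for Ednrb. In the other direction, for every 100 UMIs in CD49b- wells, CD49b+ wells held 13.9 of Cnp and 32.4 of Pmp22, against 0.896 of Elavl4, 1.34 of Snap25 and 1.49 of Stmn2, which are neuron markers. Pmp22 is placed here by its raw UMIs, although its CPM was not lower in CD49b+ cells. The part of stray transcripts in these counts was not tested. When wells with more marker UMIs of the other cell type were left out, which removed 4 irradiated CD49b+, 0 homeostasis CD49b+, 2 irradiated CD49b- and 2 homeostasis CD49b- wells, the log2 fold changes were 5.08 for Gpm6b, 3.04 for Mbp, -1.07 for Cnp and 0.27 for Pmp22.

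Well by well, detection followed depth as well as level. Gpm6b had a UMI in 48.5% ± 12.1 of CD49b+ wells and 6.26% ± 2.74 of CD49b- wells per plate (SD, n = 6 plates each). Mbp was found in 19.1% ± 3.797 of CD49b+ and 8.92% ± 3.26 of CD49b- wells, and Cnp in 9.11% ± 5.43 of CD49b+ and 44.3% ± 8.77 of CD49b- wells. For comparison, Sox10 had a UMI in 51.4% of all CD49b+ wells and 0.379% of all CD49b- wells, and Snap25 in 5.28% of all CD49b+ wells and 99.2% of all CD49b- wells, at depths whose medians per plate are given above. In all 6 pools these 3 differences had the sign of the plate sums, and the two-sided exact sign-flip permutation p was 0.03125 for each, the smallest that 6 pools allow. The share for Pmp22 was lower in CD49b+ wells, 38.7% ± 8.85 against 62.6% ± 11.3 in CD49b- wells, where its CPM was not, and no order is read from it. Mal was found in 2.396% ± 2.22 of CD49b+ wells and in 0% of CD49b- wells (two-sided exact sign-flip permutation p = 0.125, higher in 4 of 6 pools).

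With each well thinned to 1000 UMIs, which every retained well has, Gpm6b was seen in 27.7% ± 9.10 of CD49b+ and 1.11% ± 1.23 of CD49b- wells, and Mbp in 9.09% ± 4.21 of CD49b+ and 1.5% ± 1.39 of CD49b- wells (SD, n = 6 plates each). Cnp was seen in 3.09% ± 2.15 of CD49b+ and 7.54% ± 4.13 of CD49b- wells. Pmp22 changed sides, with 18.6% ± 7.37 of CD49b+ and 15.5% ± 5.30 of CD49b- wells (two-sided exact sign-flip permutation p = 0.156). Mal was seen in 1.44% ± 1.60 of CD49b+ wells and in no CD49b- well. At equal depth, then, the shares stood in the same order between gates as the CPM for each of the 5 genes.

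**Figure D2:**
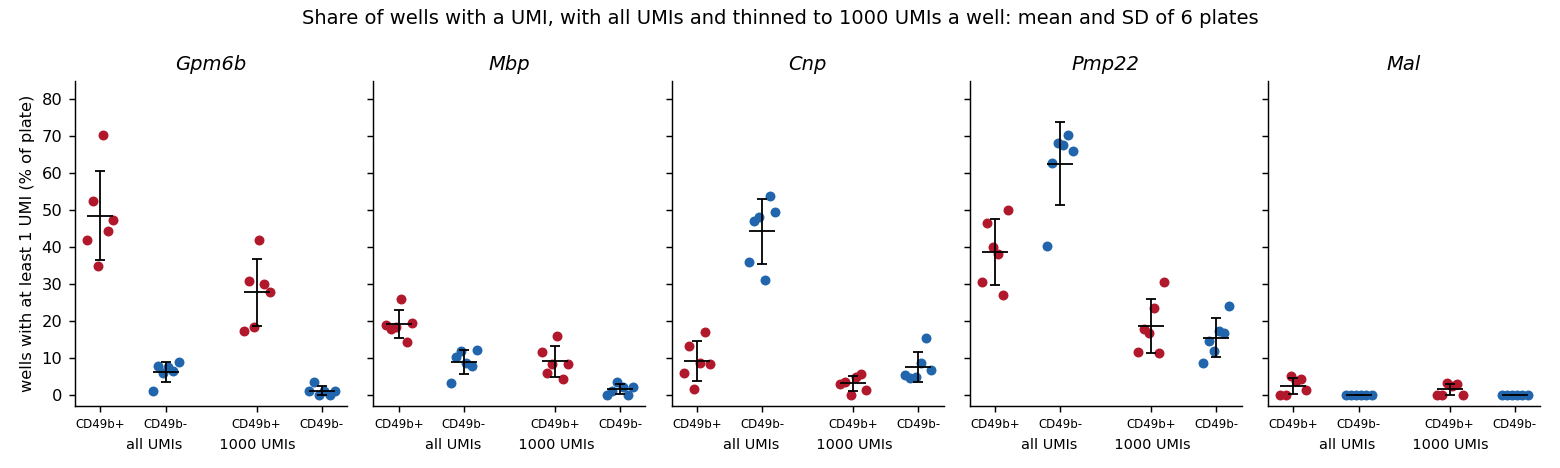
Percentage of retained wells on each plate with at least 1 UMI of each gene, with all UMIs of a well and after thinning every well to 1000 UMIs; points are plates, bars the mean and SD of 6 plates a gate. At equal depth the share of Gpm6b was 27.7% in CD49b+ and 1.11% in CD49b- wells, and that of Pmp22, 18.6% in CD49b+ and 15.5% in CD49b- wells, no longer favoured the CD49b- gate.

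The genes were detected at low counts in each well. Of 436 CD49b+ wells, 98 had none of the 5 genes, 193 had 1 of them, 109 had 2, 34 had 3, 2 had 4 and 0 had all 5. The highest count in a CD49b+ well was 5 for Gpm6b, Mbp and Pmp22, 3 for Cnp and 2 for Mal. Gpm6b had at least 3 UMIs in 37 wells, against 6 wells for Mbp. Mbp was seen in 22.7% of the 216 CD49b+ wells with Gpm6b and in 15.9% of those without it, at median depths of 2521.5 UMIs with Gpm6b and 2385.5 UMIs without it. Pmp22 was seen in 36.6% of CD49b+ wells with Gpm6b and 41.4% of those without it. Because the wells with Gpm6b were also deeper, and counts are sparse, no association between the genes is read from these shares.

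Genes that mark a myelinating Schwann cell were scarce. The 9 markers of that cell summed to 59.8 to 108 raw CPM on irradiated CD49b+ plates, 61.6 to 110 on homeostasis CD49b+ plates, 9.23 to 21.4 on irradiated CD49b- plates and 16.1 to 21.3 on homeostasis CD49b- plates. Pmp2, a fatty acid binding protein of peripheral myelin, and Gjb1, a connexin of peripheral myelin, had 0 UMIs in every group. Egr2, the transcription factor that drives Schwann cell myelination, made up 26 of the list's 50 UMIs on irradiated and 32 of its 45 UMIs on homeostasis CD49b+ plates. Of 7 oligodendrocyte markers, Mog, Opalin and Olig2 had 0 UMIs in all groups, and the list summed to at most 13.3 raw CPM on irradiated CD49b+, 16.8 on homeostasis CD49b+, 4.04 on irradiated CD49b- and 4.58 on homeostasis CD49b- plates. The part of myelinating cells in the levels of the 5 genes was not tested.

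Other genes of the myelin sheath were mostly either higher in CD49b+ cells or too rare to test. Of 31 sheath genes, among them Mbp, Cnp, Pmp22 and Mal, 27 were detected and 13 passed the filter on low counts, and of those 9 were higher and 2 lower in CD49b+ cells, beside 29.6% of all genes tested that were higher and 32.4% that were lower. Their median log2 fold change was 1.62, against -0.13 over all genes tested, and it was the same with Gjc3 at its bound. Gjc3, a connexin of myelinating glia, had 81 UMIs in CD49b+ and 0 in CD49b- cells and was 96.3-fold higher against that floor. Gjc3 and Mbp passed the filter through CD49b+ plates alone, so their direction was set by how they entered the tally. Cd59a, an inhibitor of complement attack that sits on many membranes, was higher with a log2 fold change of 4.32 (SE 0.19). Cnp was joined on the lower side by Tspan2, a tetraspanin of oligodendrocytes, at -1.50 (SE 0.34, edgeR adjusted p = 6.09e-04). Bcas1, a marker of newly myelinating oligodendrocytes, had 0 UMIs in CD49b+ and 44 in CD49b- cells. Against a floor of 3 counts in CD49b+ cells it was 4.11-fold lower there.

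The enzymes of myelin lipids ran in both directions. Of 10 such genes, 8 were detected and 5 tested, 3 of them higher and 1 lower in CD49b+ cells, beside 29.6% higher and 32.4% lower of all genes tested, with a median log2 fold change of 0.86 against -0.13 over all genes tested. Ugt8a and Fa2h, which make the galactolipids typical of myelin, had 0 UMIs in all groups. Gal3st1, which adds sulfate to galactolipids, had 11 UMIs in CD49b+ and 0 in CD49b- cells. The lower gene was Smpd3, a sphingomyelinase, at -3.99 (SE 0.23), with 78 UMIs in CD49b+ and 4260 in CD49b- cells.

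Regulators of Schwann cell development included several that were higher in CD49b+ cells. Of 21 transcription factors and signals, 19 were detected and 11 tested, of which 7 were higher and 1 lower in CD49b+ cells, beside 29.6% higher and 32.4% lower of all genes tested, with a median log2 fold change of 4.66. Sox10 and Erbb3 of this list are also among the enteric glia markers. Sox10, Egr2, Erbb3, Adgrg6 and Lgi4 passed the filter on low counts through CD49b+ plates alone. Their direction was thus set by how they entered the test, and the tally and median only describe the list. Sox10, the transcription factor that activates many myelin genes, had 329 UMIs in CD49b+ and 2 in CD49b- cells. Egr2 had 58 UMIs in CD49b+ and 1 in CD49b- cells, a ratio of 207 per UMI of depth with a 95% counting interval of 35.7 to 8306. Erbb3, the neuregulin receptor of the lineage, was higher with a log2 fold change of 6.29 (SE 0.43), and the RNA binding gene Qk, which steers the splicing and transport of myelin transcripts, with 4.66 (SE 0.29). All 14 genes of non-myelinating and immature Schwann cells were tested, 11 higher and 2 lower in CD49b+ cells, beside 29.6% higher and 32.4% lower of all genes tested, with a median log2 fold change of 4.06. This list shares Gfap, Cdh19, Foxd3, Ednrb and Fabp7 with the enteric glia markers. Gfap, Cdh19, Foxd3, Fabp7, Nes and Sox2 also passed the filter through CD49b+ plates alone, and the same limit holds. Its lower members included Gap43, a growth cone protein also abundant in neurons, at -1.68 (SE 0.19).

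**Figure D3:**
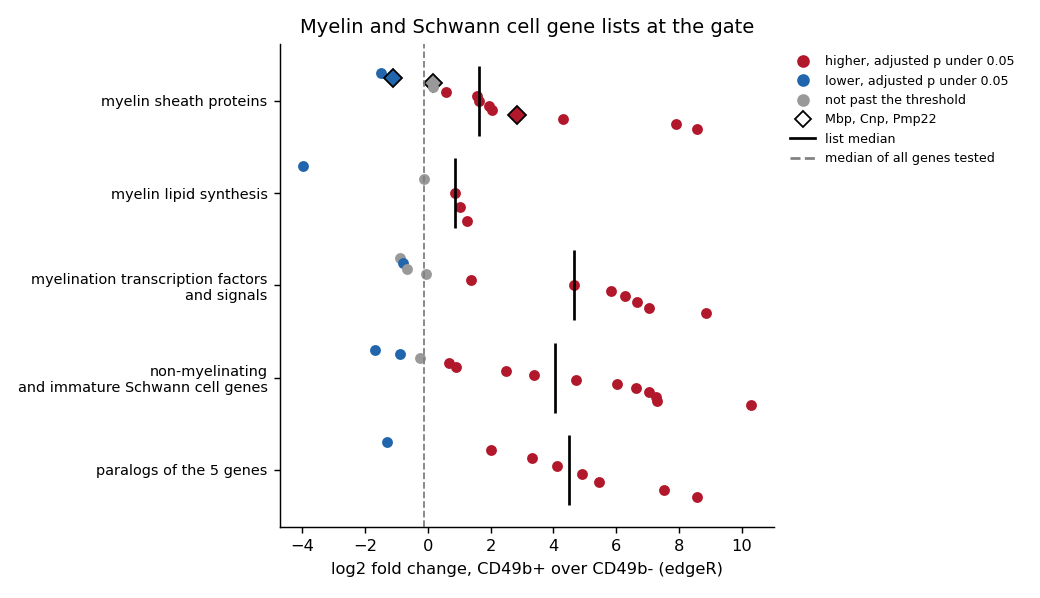
Log2 fold change of CD49b+ over CD49b- cells for every tested gene of the myelin, Schwann cell and paralog lists, 1 point a gene; diamonds are Mbp, Cnp and Pmp22, black bars list medians and the dashed line the median of all genes tested, -0.13. The sheath list, with a median of 1.62, spread to both sides, and Cnp lay at -1.10 beside Tspan2 at -1.50.

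Relatives of the 5 genes by sequence did not always share their pattern. Gpm6a, the relative of Gpm6b that is best known from neurons, had 1 UMI in CD49b+ and 16 in CD49b- cells, all 16 in 1 well of homeostasis replicate 3. The PMP22 family members Emp1, Emp2 and Emp3 all were higher in CD49b+ cells, with log2 fold changes of 3.32 (SE 0.43), 5.44 (SE 0.48) and 4.12 (SE 0.26), where Pmp22 itself was at 0.17. The lens member Lim2 had 0 UMIs in all groups. In the MARVEL domain family of Mal, Cmtm5 was higher at 7.52 (SE 0.28), Cmtm3 at 4.90 (SE 0.55) and Cmtm6 at 2.02 (SE 0.52), and Myadm was lower at -1.29 (SE 0.37, edgeR adjusted p = 0.0043). Mal2, the epithelial relative, ran opposite to Mal, with 1 UMI in CD49b+ and 41 in CD49b- cells, a ratio of 11.5 toward CD49b- with a 95% counting interval of 1.95 to 465. Pllp had 1 UMI and Mall had 0 UMIs in all wells. In total 8 of 14 relatives were tested, 7 higher and 1 lower in CD49b+ cells, beside 29.6% higher and 32.4% lower of all genes tested, with a median log2 fold change of 4.51. Emp2, Cmtm3 and Cmtm5 were among those that passed the filter through CD49b+ plates alone, so the tally and median only describe the list.

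**Figure D4:**
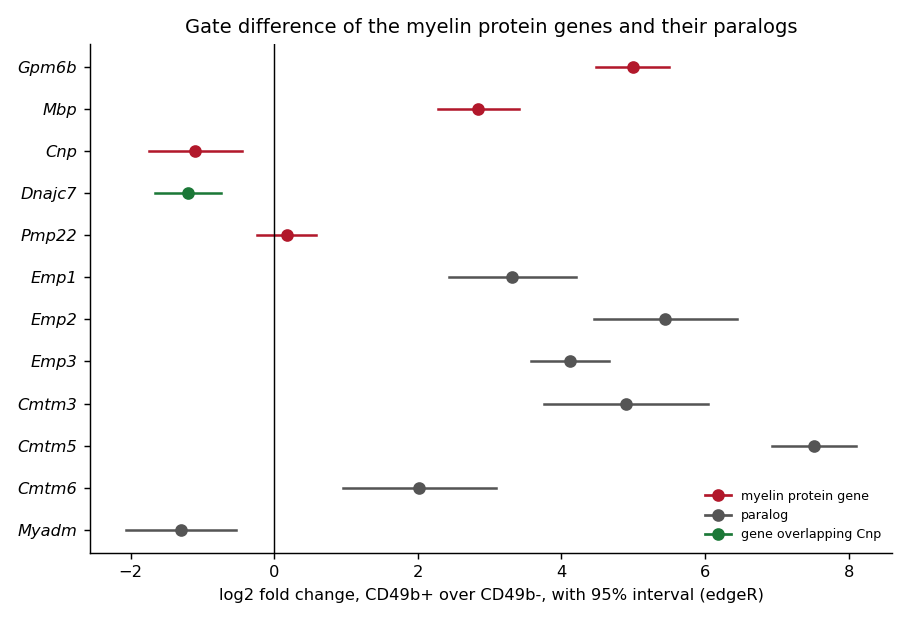
Log2 fold change of CD49b+ over CD49b- cells with its 95% interval from edgeR for the 4 tested myelin protein genes, 7 of their tested relatives and Dnajc7, which overlaps Cnp. Emp1, Emp2 and Emp3 lay at 3.32, 5.44 and 4.12, apart from Pmp22 at 0.17, and Dnajc7 at -1.20 lay close to Cnp at -1.10.

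Genes with the most similar profile were found by Pearson's correlation of log2 CPM over all 8554 other genes tested, as a description. Over the 12 plates, which fall into the 2 gates, Gpm6b was closest to Olfml2a (0.992), Cpe (0.992) and Gpsm2 (0.991), Mbp to Col9a2 (0.988), Kcnj10 (0.988) and Tnfsf9 (0.987), and Cnp to Bbs4 (0.942), Tgfb1i1 (0.938) and Trnt1 (0.935). Pmp22, with no gate contrast, had lower values, with Nr1h2 (0.840), Ak3 (0.824) and Dguok (0.817) at the top. Over the 6 CD49b+ plates alone the closest were Lims2 for Gpm6b (0.983), Cnep1r1 for Mbp (0.984), Bbs4 again for Cnp (0.995) and Cxcl10 for Pmp22 (0.991). None of the 3 closest genes was shared between the 2 sets of plates other than Bbs4. Across CD49b+ wells, where 4142 genes were compared, none correlated with Gpm6b, Mbp or Pmp22 above 0.186, and in counts this sparse that is no finding.

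Whether radiation changed the myelin protein genes was asked within each gate, with 3 plates against 3. None of the 4 tested genes passed the threshold in either gate, beside 0.713% of all genes tested in CD49b+ cells and 0.0468% in CD49b- cells. Gpm6b came nearest, at 261 ± 52.6 CPM in irradiated and 424 ± 143 CPM in homeostasis CD49b+ plates (SD, n = 3 each), a log2 fold change of -0.68 (SE 0.27, 95% interval -1.23 to -0.13) with an unadjusted edgeR p of 0.0168, beside 10.6% of genes tested with an unadjusted p under 0.05, and an adjusted p of 0.316. Its plates overlapped, since irradiated replicate 2 lay above homeostasis replicate 2. The value was -0.60 without irradiated CD49b+ replicate 1 and -0.38 without homeostasis CD49b+ replicate 1. In CD49b- cells Gpm6b was 8.55 ± 2.78 CPM after irradiation and 11.9 ± 3.73 CPM in homeostasis (SD, n = 3 each), with a log2 fold change of -0.42 (SE 0.50).

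The other 3 genes moved less in relation to their error. Mbp averaged 99.4 ± 16.5 CPM in irradiated and 111 ± 32.3 CPM in homeostasis CD49b+ plates (SD, n = 3 each), with a log2 fold change of -0.17 (95% interval -0.89 to 0.55). Cnp averaged 32.4 ± 30.5 CPM in irradiated and 58.1 ± 28.6 CPM in homeostasis CD49b+ plates, -0.70 with an interval of -1.85 to 0.45. That value was -1.84 without irradiated CD49b+ replicate 2, -0.28 without irradiated CD49b+ replicate 3 and -0.26 without homeostasis CD49b+ replicate 2. Pmp22 averaged 217 ± 54.4 CPM in irradiated and 230 ± 90.5 CPM in homeostasis CD49b+ plates, -0.06 with an interval of -0.69 to 0.57. In CD49b- cells the intervals were -1.12 to 0.66 for Mbp, -0.68 to 0.66 for Cnp and -0.71 to 0.35 for Pmp22. Pmp22 passed the threshold under none of the other settings, but its log2 value moved to -0.64 (SE 0.38) in CD49b+ and -0.77 (SE 0.35) in CD49b- cells with the plate set, described below, as a term, and to -0.50 (SE 0.37) in CD49b+ and -0.87 (SE 0.37) in CD49b- cells with wells thinned to 1000 UMIs. The difference between the irradiation effects in the 2 gates did not pass the threshold for any of the 4 genes, beside 0.0117% of all genes tested, with edgeR adjusted p-values from 0.867 to 1.0. Mal had 3 UMIs in irradiated and 9 in homeostasis CD49b+ cells, and the shares of wells, 1.67% ± 2.89 in irradiated and 3.13% ± 1.53 in homeostasis (SD, n = 3 each), did not differ beyond their spread (two-sided exact permutation p = 0.4, where 3 plates against 3 allow no less than 0.1).

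**Figure D5:**
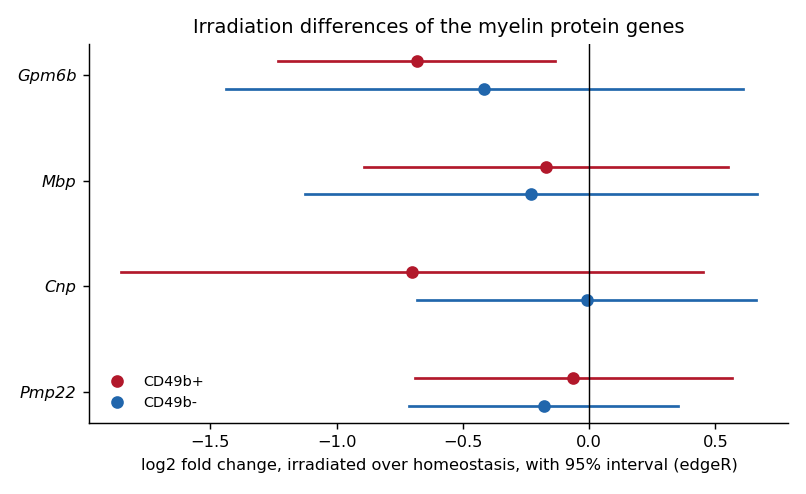
Log2 fold change of irradiated over homeostasis cells with its 95% interval from edgeR for Gpm6b, Mbp, Cnp and Pmp22 in CD49b+ and CD49b- cells. Only the interval of Gpm6b in CD49b+ cells, -1.23 to -0.13, lies wholly below 0, and its adjusted p was 0.316.

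Plate numbering was partly bound to treatment. By their plate numbers in the labels the plates form 3 sets, which the labels do not call batches: replicate 1 of irradiated and of homeostasis mice shared set A, while replicates 2 and 3 lay in set B if irradiated and in set C if not. Within set A, with 1 plate a group and no test, Gpm6b was 224 CPM in irradiated and 587 CPM in homeostasis CD49b+ cells, and 6.22 CPM in irradiated and 15.8 CPM in homeostasis CD49b- cells. Sets B and C hold 1 treatment each and give no such value. With the set as a term the log2 fold change of Gpm6b in CD49b+ cells was -1.40 (SE 0.37, edgeR adjusted p = 0.123), an estimate taken from 1 pool of each treatment. The summed glia markers, given above, were also lower on irradiated than on homeostasis CD49b+ plates without overlap, and their part in the value of Gpm6b was not tested. No gene of the sheath, lipid, regulator or relative lists passed the irradiation test in either gate. In the list of non-myelinating and immature Schwann cell genes Gfap passed in CD49b+ cells, with a log2 fold change of 1.07 (SE 0.25, edgeR adjusted p = 0.0380) and no overlap between plates of 715 to 1320 CPM after irradiation and 451 to 461 CPM in homeostasis, where 10.9% of genes tested did not overlap. That call was lost with each of 11 plates left out in turn, and held without irradiated CD49b+ replicate 1.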

How the data were processed

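The deposited table held raw UMI counts for each gene and well, 1150 wells on 12 plates, with no normalisation. Per the labels, cells were lysed and reverse transcribed in the plate and sequenced as Nextera XT libraries. The submitters' processing notes name STAR 2.5.3a, featureCounts 1.5.3, GRCm38 and GRCh38 without their roles, and how molecules were collapsed is not given in the sources used here. Wells with under 1000 UMIs, under 500 genes or 20% or more mitochondrial UMIs were dropped, leaving 964 wells and 5119450 UMIs. The plates reuse the same 96 well barcodes, 1 set per plate. Cells were sorted 1 per well, and no doublet caller was run. Cell types were taken from the sorting gate, without clustering.

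Counts of retained wells were summed per plate and tested with edgeR 4.0.16 in R 4.3.3, after TMM normalisation and filterByExpr. A gene could pass that filter on the plates of 1 gate alone, as Gpm6b and Mbp did on CD49b+ plates. All 4 groups entered 1 quasi-likelihood fit, and p-values were adjusted by Benjamini and Hochberg's method over the 8555 genes that passed the filter, with a threshold of 0.05. Shares of wells were compared with exact permutation tests and unadjusted p-values. Plates of 1 pool come from the same 2 mice by the mouse identifiers in the labels, so the pool was tried as a block; the deviations of a pool's paired plates from their group means correlated, over genes, at 0.184, 0.113 and -0.0336 in irradiated pools and 0.0971, 0.0431 and 0.0587 in homeostasis pools. Replicate numbers were given in order of accession and only name a plate. In the main edgeR fit, p-values rest on the spread between plates within a group, each plate from a different pool. That fit does not pair the 2 plates of a pool. Sign-flip p-values rest on the differences within pools. The 5 genes and all gene lists were chosen with earlier results of these data known. Named genes were the 5, those of the lists past a test with the largest changes, relatives of the 5, sheath genes at 0, and the 3 most correlated genes. Genes singled out by their UMI counts, and Dnajc7, were chosen after their values were seen. Promoter windows came from RefSeq and positions from the GENCODE annotation of GRCm38. Intervals of ratios and floors of 3 counts cover counting error only. Folds against a floor take the count of the other gate as it stands, without its own counting error. Some genes of the lists are counted in them but not reported here by name.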

Additional observations from a re-analysis of the deposited data

Results flagged for a closer look

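Wells that failed the filter, outside the comparisons of the report and used only in the recomputation with all wells, still held transcripts of these genes. Gpm6b had 12 UMIs in 10 of 139 CD49b+ wells that were left out, 376 raw CPM of their own UMIs, and 0 UMIs in 47 such CD49b- wells. Mbp had 6 UMIs in 5 of those CD49b+ wells, 188 raw CPM, and 0 in the CD49b- wells. These wells held 31948 UMIs in all in the CD49b+ gate and 8270 in the CD49b- gate.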

How the results depend on the processing

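Of 320 values recomputed under other settings, 289 counted as unchanged. For refitted log2 fold changes and gate shares of wells, this meant the same direction and side of the threshold. Irradiation shares and set A ratios had to stay within the SD of the plates. Numbers of genes called had to stay within a fixed ratio, and Mal within its Poisson interval. The irradiation share difference of Pmp22 in CD49b+ wells thus counted as unchanged, at 0.48 points with all UMIs and -6.44 points thinned. The gate calls of Gpm6b, Mbp and Cnp held in every alternative that gave a value, and with each plate left out. Thinned to 1000 UMIs, Mbp and Cnp fell below the filter on low counts and could not be fitted, and 1555 genes passed the gate test. In that setting the Pmp22 share difference between the gates became 3.07 points, and Gpm6b after irradiation in CD49b- cells became 0.85. With wells of at least 2000 UMIs, the irradiation values in CD49b+ cells were 0.018 for Mbp and 0.0068 for Pmp22. The difference between the irradiation effects of Mbp was -0.049 with no filter on low counts, -0.051 with all wells and -0.057 with wells of the gate's own markers, and that of Pmp22 was -0.0038 with no filter. For Cnp in CD49b- cells irradiation gave 0.0080 with no filter and 0.37 with the plate set as a term. Within set A the irradiation log2 ratios were -1.39 for Gpm6b in CD49b+ cells, and in CD49b- cells -1.34 for Gpm6b, -0.76 for Mbp, 0.61 for Cnp and -0.82 for Pmp22. None of these values passed the threshold or was tested, and the cause of the moves was not tested.

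In CD49b+ cells irradiation called 61 genes, against 112 with DESeq2, 146 with no filter, 23 thinned, 24 with wells of the gate's own markers and 30 with the plate set as a term. In CD49b- cells it called 4, against 45 with no filter and 0 thinned. The difference of effects called 1, against 33 with DESeq2, 67 with no filter and 0 with the mouse pool as a replicate block. With the replicate block the paired gate values were 4.99 for Gpm6b, 2.85 for Mbp, -1.15 for Cnp and 0.15 for Pmp22, and no other call changed. Leaving out each plate in turn gave 4 genes (without homeostasis CD49b+ replicate 3) to 156 (without irradiated CD49b+ replicate 3) for irradiation in CD49b+ cells. It gave 17 without homeostasis CD49b+ replicate 1 or 2, 28 without irradiated CD49b+ replicate 2, and 38 to 40 without irradiated replicate 1 of either gate or homeostasis CD49b- replicate 2. In CD49b- cells it gave 1 gene (without irradiated CD49b- replicate 1), 2 (without irradiated CD49b- replicate 2) to 8 (without irradiated CD49b+ replicate 1), and for the difference of effects 0 to 87, the highest without irradiated CD49b+ replicate 3.

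With each plate left out, Pmp22 ran from -0.023 to 0.29 at the gate. Irradiation in CD49b+ cells ran from -0.31 to 0.089 for Mbp, -0.36 to 0.20 for Pmp22 and -1.84 to -0.26 for Cnp, and in CD49b- cells from -0.38 to 0.022 for Mbp, -0.26 to 0.23 for Cnp and -0.32 to 0.0030 for Pmp22. The difference of effects ran from -0.49 to 0.039 for Gpm6b, -1.83 to -0.25 for Cnp, -0.19 to 0.32 for Mbp and -0.18 to 0.38 for Pmp22. Depth limits Mal, at 12 UMIs in all, and Cnp in CD49b+ cells, at 1 UMI on its lowest plate. For irradiation, 3 plates a group leave intervals as wide as -1.85 to 0.45 on the log2 scale.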

Other observations

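A few other genes of myelin biology lay outside the comparisons because they were too rare to test. Gal3st1, a sulfotransferase of myelin lipids, had 11 UMIs in CD49b+ and 0 in CD49b- cells, 13.1-fold higher in CD49b+ cells against a floor of 3 counts. Aspa, which cleaves N-acetylaspartate in oligodendrocytes, had 16 UMIs in CD49b+ and 2 in CD49b- cells, a ratio of 28.5 with a 95% counting interval of 6.70 to 256. Erbb2, the partner of Erbb3, had 25 UMIs in CD49b+ and 0 in CD49b- cells, 29.7-fold higher in CD49b+ cells against the same floor. Dhh, a signal from Schwann cells to the sheath around the nerve, had 4 UMIs in CD49b+ and 0 in CD49b- cells. Elovl7, a fatty acid elongase, had 1 UMI in CD49b+ and 66 in CD49b- cells, a ratio of 18.5 toward CD49b- with an interval of 3.21 to 742. These genes were chosen after their values were seen.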
